A study of Mus musculus with 10 samples.

Results

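Cytoplasmic ribosomal protein genes encode the protein subunits of the ribosome outside mitochondria. They were taken here as the gene symbols that begin with Rpl, Rps or Rplp, continue with a number and may end in a or x. Of 24370 symbols in the table, 75 matched, and 74 of these reached 0.5 TPM in at least 2 of 10 libraries, the level required of every gene tested (14706 genes). TPM is the read count of a gene divided by its length and scaled to a fixed total per library. The member left out, Rpl26, had 1 read in 1 library. The 74 members comprise 29 genes of the small (40S) and 45 genes of the large (60S) subunit. Other ribosomal protein genes, among them Rpsa, Fau, Rps3a1 and Gnb2l1, have names that the rule does not take and are described apart.

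Ribosomal proteins are needed in nearly equal numbers, since each ribosome holds 1 copy of most of them, the stalk proteins Rplp1 and Rplp2 being an exception. Their mRNAs are short, abundant and stable, and many begin with a cytosine followed by a run of pyrimidines, the terminal oligopyrimidine (TOP) motif, through which mTOR signalling controls their translation. Embryonic stem cells divide fast, and ribosomal protein mRNAs are among their most abundant transcripts.

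The study asked whether Usp17le, a deubiquitinase gene, acts through the transcription factor Dux on the 2-cell-like program of mouse embryonic stem cells. Polyadenylated RNA was sequenced in 5 groups of 2 libraries. WT cells were not transfected, Usp17le OE cells carried a Usp17le plasmid, and Dux KD cells carried a hairpin RNA against Dux, the last 2 groups being selected with puromycin according to the labels. Usp17le OE-Dux KD cells received the hairpin on top of the plasmid, and Dux KD-Usp17le OE cells received the plasmid on top of the hairpin. The labels give the line as J1 throughout, whereas the methods name E3, grown on feeder cells, besides J1, grown on gelatin. For hairpins against Usp17l the methods describe the picking of single clones. Cells given an empty plasmid or an unrelated hairpin were not analysed here, which leaves transfection and selection inside every comparison against WT. Nothing in the labels says that paired libraries came from separate cultures. A p given below therefore measures library spread alone, which may be technical.

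Depth was 32188285 to 50457228 reads per library, recovered from the table. The targeted genes were read first. Usp17le stood at 1.77 and 0.649 TPM for WT, 28.7 and 35.6 for Usp17le OE, 0.466 and 0.424 for Dux KD and 11.1 and 10.6 for Usp17le OE-Dux KD. The Dux KD-Usp17le OE libraries had 0.941 and 1.63 TPM of it, within the range of WT, so any direction drawn from that label carries this limit. Dux had 5 and 12 reads in WT, 80 and 75 for Usp17le OE, 4 and 0 for Dux KD, 15 and 16 for Usp17le OE-Dux KD and 6 and 2 for Dux KD-Usp17le OE, and its difference between Dux KD and WT did not pass the test (adjusted p = 0.134). All 10 stem cell markers were over 1 TPM in every library, with summed levels of 10160 to 12850 TPM. Of 15 fibroblast feeder markers, 8 were under 1 TPM in every library, and their summed level was 103.8 to 256.7 TPM, led by Fn1 (75.8 to 181 TPM). The feeder sum was lowest in Usp17le OE (103.8 and 110.4 TPM), stood at 184.8 and 183.8 TPM for WT and was higher in all 6 libraries with the hairpin (222 to 256.7 TPM). Single feeder markers did not move together. In Dux KD against WT, 2 of the 8 tested rose and 1 fell (51.4% and 10.7% of all genes), with a median of 0.004. Fn1 changed by 0.82 (log2) and Tagln by -1.49. The part of the feeder sum in the results below was not tested.

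The RefSeq promoter table (build GRCm38.p6, the assembly of the mm10 build used for alignment) matched 54 of the 74 members, in 64 windows of 300 bases around an annotated start. A start tract, defined as a C followed by at least 4 bases that are C or T and beginning within 10 bases of the annotated start, was found in 36 of 64 member windows (56.2%) and in 30.7% of 32786 windows of other genes. The letters CCGGAA, on either strand, stood in 46.9% of member windows and 14.8% of others. AAGATGG stood in 17.2% and 6.32%, CACGTG in 12.5% and 7.14%, and TATAAA in 9.38% and 13.6%. The windows below cover 15 bases before and 15 from the start, 5′ to 3′ in the direction of the gene, with the start tract in capitals. They are shown for members with large falls in Dux KD (Rpl35a, Rps21, Rps12 and Rpl41) and for members that changed little there (Rpl4, Rps2 and Rpl28). Of these, Rpl28 had 3482 and 3505 TPM for WT and 3477 and 2950 for Dux KD. Rpl35a has 3 annotated starts in the table and Rps21 has 2, of which the window with a start tract was chosen for display, the others having none. The tract of Rps12 runs on past its window.
Rpl35a (chr16:33056467-33056496, plus strand): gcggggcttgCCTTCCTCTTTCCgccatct
Rps21 (chr2:180257364-180257393, plus strand): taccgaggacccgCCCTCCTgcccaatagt
Rps12 (chr10:23787195-23787224, minus strand): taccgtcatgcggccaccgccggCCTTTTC
Rpl41 (chr10:128549154-128549183, minus strand): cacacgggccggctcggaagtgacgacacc
Rpl4 (chr9:64173372-64173401, plus strand): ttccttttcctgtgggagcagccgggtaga
Rps2 (chr17:24720048-24720077, plus strand): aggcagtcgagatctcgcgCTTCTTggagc
Rpl28 (chr7:4792950-4792979, plus strand): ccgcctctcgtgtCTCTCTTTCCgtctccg
Windows with a tract occur in both sets. Over all matched members, those with a start tract in any window had a median log2 change of -0.69 for Dux KD against WT (34 genes) and those without had -0.66 (20 genes).

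The members had lengths of 327 to 5134 bases (median 696), as counted by the authors, and mean levels of 0.622 to 7225 TPM (median 3383 TPM). Ranked by mean TPM, 36 of the 50 most abundant genes and 64 of the first 100 were members. The highest were Rpl23a (7225 TPM on average), Rpl13, Rpl12, Rpl19 and Rps12 (6500 TPM). The lowest were Rpl30, Rps27 and Rpl34, each under 10 TPM, then Rpl29 at 333 TPM and Rps15a at 351 TPM. Rps15a has the longest counted length, 5134 bases. Rpl30 had 3 to 13 reads per library, Rps27 had 20 to 79 and Rpl34 had 31 to 121. Ribosomal protein genes have many near-identical processed copies, and only uniquely mapped reads were counted, so levels of members relative to each other are uncertain and these 3 most of all. The members lie on every autosome except chromosome 19 and on the X chromosome, with 14 on chromosome 7.

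Ribosomal protein genes took the largest part of the transcriptome in WT and the smallest in Dux KD and Usp17le OE-Dux KD. Their share of TPM was 31.2% and 31.0% for WT, 28.9% and 26.8% for Usp17le OE, and 21.5% and 19.6% for Dux KD. It was 20.9% and 21.9% for Usp17le OE-Dux KD and 24.8% and 24.1% for Dux KD-Usp17le OE. All 6 libraries that carried the hairpin lay below all 4 that did not, and Dux KD and Usp17le OE-Dux KD overlapped. The feeder marker sum, led by Fn1, split the libraries in the same way, although single feeder markers moved in both directions. The 5 groups differed (F = 39.8, exact permutation test over all 945 assignments of 10 libraries to 5 pairs, p = 0.00212, adjusted over 2 measures 0.00212), whereas 2 libraries against 2 cannot give an exact p below 0.333, so no pair of groups was tested in this way. In these bulk libraries, fewer cells of a type and less RNA per cell cannot be told apart, and a share of TPM does not give the amount of RNA per cell. Other genes under 1000 bases moved as well, from 16.2% of TPM in both WT libraries to 13.2% and 12.2% for Dux KD, but stood at 17.1% and 16.3% for Usp17le OE.

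**Figure D1:**
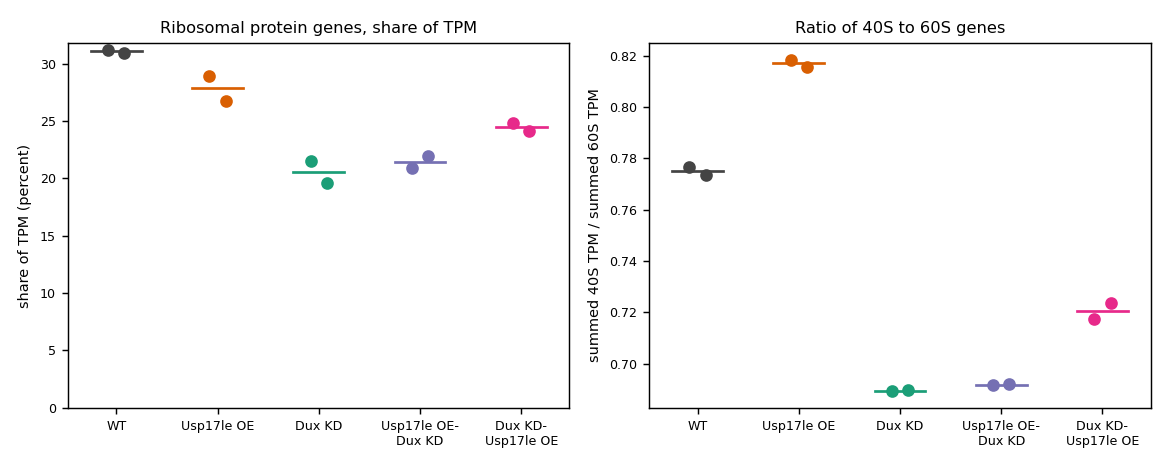
Left, share of TPM in 74 ribosomal protein genes (percent, axis from 0), and right, the ratio of summed 40S to summed 60S TPM (axis not from 0), for 5 groups, with a point per library and a line at the mean of 2. The share ran from 19.6% in a Dux KD library to 31.2% in a WT library, and the ratio lay at 0.816 to 0.818 for Usp17le OE, 0.774 to 0.777 for WT and 0.689 to 0.724 in the groups with the hairpin.

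The balance between the subunits varied over the 5 groups by far more than between libraries of a group. Dux KD and Usp17le OE-Dux KD were an exception and lay closer together than the 2 Dux KD-Usp17le OE libraries. The ratio of summed 40S to summed 60S TPM was 0.777 and 0.774 for WT, 0.818 and 0.816 for Usp17le OE, 0.689 and 0.690 for Dux KD, 0.692 and 0.692 for Usp17le OE-Dux KD, and 0.717 and 0.724 for Dux KD-Usp17le OE. No 2 groups overlapped. The F statistic was 1050, and its p of 0.00106 in the exact permutation test is the smallest that 945 assignments can give (adjusted p = 0.00212). The 40S genes are shorter, with a median of 608.5 bases against 778 for the 60S genes, over the 28 and 43 members at 10 TPM or more. A length correction was therefore made by subtracting from each library a smooth curve of log2 level on length, fitted to genes that are not members. After it, and with equal weight for every member, the mean log2 deviation of 40S minus that of 60S genes was 0.11 ± 0.018 for Usp17le OE, 0.02 ± 0.004 for WT, -0.03 ± 0.020 for Dux KD-Usp17le OE, -0.04 ± 0.030 for Dux KD and -0.07 ± 0.019 for Usp17le OE-Dux KD (SD, n = 2 each). Usp17le OE stayed above WT and WT above all 6 libraries with the hairpin, while the 3 hairpin groups overlapped (F = 24.3, exact permutation p = 0.00635). A correction by length and level together gave F = 56.1 (exact permutation p = 0.00741). Both corrections of this measure were chosen after seeing the data. Medians over all members did not keep this order in every group. After the length correction, the median change from WT in Dux KD was -0.285 for 40S and -0.354 for 60S genes. The same medians were -0.353 and -0.324 for Usp17le OE-Dux KD, -0.224 and -0.178 for Dux KD-Usp17le OE, and -0.264 and -0.344 for Usp17le OE.

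In Dux KD the members were lower almost throughout. Against WT, 65 of 74 fell and 1 rose, at an adjusted p under 0.05 in limma, against 10.7% of all genes tested that fell and 51.4% that rose. The median member changed by -0.64 (log2, a 0.64-fold level) and the median of all genes by 0.38. Scaling by the median gene sets the latter to about 0, and with it 72 members fell and none rose, with a median of -1.05. Of all 14706 genes, 3786 then fell and 4113 rose. Rpl41, the smallest ribosomal protein, had 4648 and 4954 TPM for WT and 2376 and 1645 for Dux KD, a log2 change of -1.28 (SE 0.22, adjusted p = 0.00337). Rpl35a, a 60S protein mutated in Diamond-Blackfan anaemia, went from 3040 and 3059 TPM to 1539 and 1146, a change of -1.20 (SE 0.17, adjusted p = 0.00101). Rps12, a 40S protein, went from 9211 and 8662 TPM to 4320 and 3721. The 2 groups did not overlap for any of these. Rps27 showed the most negative change (-1.46, SE 0.32, adjusted p = 0.0022), but rests on 79 and 65 reads in WT and 32 and 20 for Dux KD.

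A few abundant members were not called lower. Rpl4, which lines the exit tunnel of the 60S subunit, had 4950 and 4891 TPM for WT and 5443 and 5597 for Dux KD, and was the member that rose (0.17, SE 0.03, adjusted p = 0.000722), although scaling by the median gene turned this to -0.25. Rps2, at the mRNA entry of the 40S subunit, had 6018 and 5802 TPM for WT and 5961 and 6398 for Dux KD (0.06, SE 0.04, adjusted p = 0.201). Rpl8, a 60S protein next to the peptidyl transferase centre, had 5381 and 5273 TPM for WT and 5091 and 5176 for Dux KD (-0.05, SE 0.03, adjusted p = 0.176). Rpl5 and Rpl11, which bind 5S rRNA and, when free, the p53 regulator Mdm2, fell by 0.61 (SE 0.03, adjusted p = 2.3e-08) and by 0.41 (SE 0.06, adjusted p = 9.66e-05). Relative to the median member, 22 members were called higher and 21 lower. Of all 14706 genes 78.5% differed from the median member, 11224 being higher and 327 lower. Of the 40S genes 5 were higher and 12 lower, and of the 60S genes 17 were higher and 9 lower. This fit took the spread almost wholly from genes of like level (infinite prior degrees of freedom), so its p-values rest on that shared spread and are not printed. Rpl4 lay 0.80 (SE 0.09) above the median member, Rps2 lay 0.70 (SE 0.09) above and Rpl41 lay 0.64 (SE 0.10) below.

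**Figure D2:**
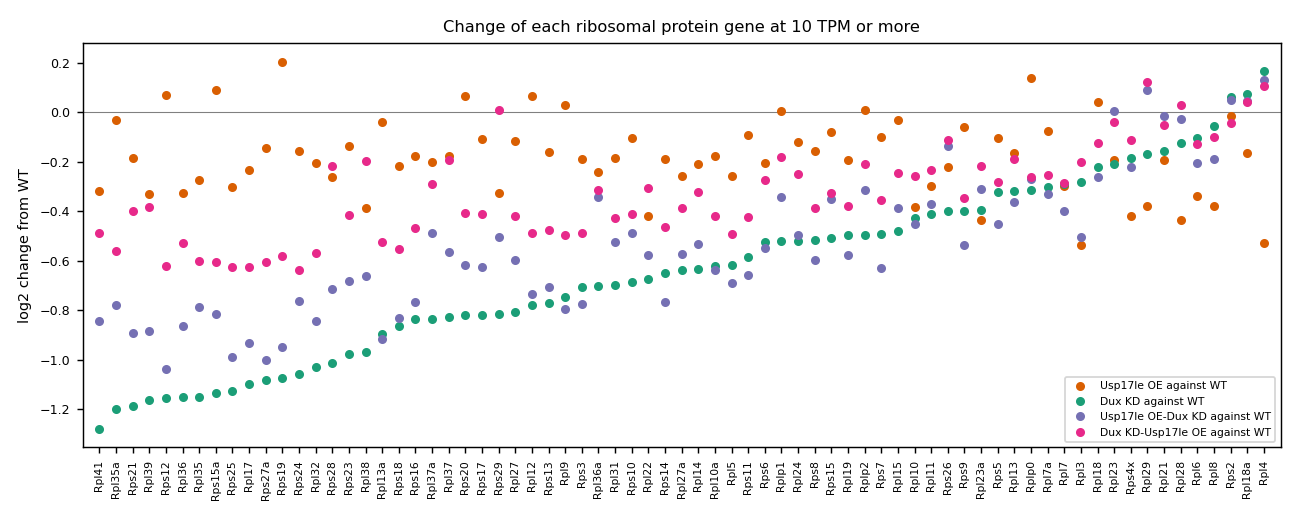
Log2 change from WT in 4 groups (colours) for each of 71 ribosomal protein genes at 10 TPM or more, ordered by the change in Dux KD. Dux KD runs from -1.28 for Rpl41 to 0.17 for Rpl4, and Rpl4, Rpl3, Rps4x and Rpl8 lie lower in Usp17le OE than in Dux KD.

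In Usp17le OE the change was small. Against WT, 29 members fell and 2 rose, against 20.9% and 45.5% of all genes, with a median member at -0.19 and a median gene at 0.26. Scaled by the median gene, 54 fell and none rose, with a median of -0.45, while 4833 of all 14706 genes fell and 4848 rose. Among members at 10 TPM or more, Rpl3 and Rpl4 fell most. Rpl3, next to the peptidyl transferase centre, went from 3497 and 3418 TPM for WT to 2452 and 2323 (-0.53, SE 0.05, adjusted p = 1.77e-06). Rpl4 went from 4950 and 4891 TPM to 3363 and 3469, so that its Usp17le OE libraries lay below and its Dux KD libraries above WT. Rplp0, the base of the stalk that recruits elongation factors, went from 3879 and 3675 TPM to 4107 and 4201 and was called higher (0.14, SE 0.04, adjusted p = 0.00455), but scaling by the median gene turned this to -0.12 and the length correction to -0.03. The other member called higher was Rpl34, at 31 to 121 reads. Relative to the median member, 6 members were higher and 9 lower (62.4% of all genes differed), and the sum of 15 was 7 without the first and 6 without the second WT library. Of all 14706 genes, 7216 were higher and 1964 lower on this scale. Rps19, a 40S protein mutated in Diamond-Blackfan anaemia, lay 0.36 (SE 0.10) above the median member and Rpl4 lay 0.37 (SE 0.09) below.

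The group that received the hairpin after the plasmid was lower in most members. In Usp17le OE-Dux KD, 58 members fell and 1, Rpl4, rose against WT (11% and 59.5% of all genes), with a median of -0.57, and scaling by the median gene turned Rpl4 to -0.44. Against Usp17le OE, 48 fell and 8 rose (18.6% and 45.7% of all genes), with a median of -0.39, and the members moved far apart from each other. Rps19 went from 5748 and 4782 TPM for Usp17le OE to 2316 and 2394 (-1.15, SE 0.09, adjusted p = 2.73e-06) and Rps12 from 9837 and 8931 TPM to 4233 and 4468 (-1.11, SE 0.07, adjusted p = 4.38e-07). Rpl4 went the other way, from 3363 and 3469 TPM to 5406 and 5361 (0.66, SE 0.03, adjusted p = 7.07e-09), and Rpl28 from 2619 and 2555 TPM to 3234 and 3628 (0.41, SE 0.07, adjusted p = 0.000723). Relative to the median member 18 were higher and 16 lower (69.8% of all genes differed, 9209 being higher and 1052 lower). Of the 45 60S genes 15 were higher and 7 lower, and of the 29 40S genes 3 were higher and 9 lower. This fit has no length correction, and the 60S genes are longer.

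The libraries labelled Dux KD-Usp17le OE, in which Usp17le was not above WT, lay between Dux KD and WT. Against WT, 53 members fell and 1, again Rpl4, rose (7.62% and 44.8% of all genes), with a median of -0.37, and scaling by the median gene turned Rpl4 to -0.21. Against Dux KD, 32 members rose, where 2.88% of all genes did, with a median of 0.27. Without the first Dux KD-Usp17le OE library this count was 5 and without the second 10, without the second Dux KD library it was 13, and without the first Dux KD library it was 48. The largest changes did not pass the test: Rps29, a short 40S gene, had 946 and 644 TPM for Dux KD and 1498 and 1276 for Dux KD-Usp17le OE (0.82, SE 0.32, adjusted p = 0.163). Relative to the median member 14 were higher and 10 lower (44.4% of all genes differed), but 0 differed by limma without the second Dux KD library and 2 without the first Dux KD-Usp17le OE library. Of all 14706 genes, 223 were higher and 6302 lower relative to the median member. Against Usp17le OE-Dux KD, the other group with both constructs, 34 members rose (7.97% of all genes), with a median of 0.20. Of the 208 other genes of like length and level described below, 41.3% rose in that comparison, with a median of 0.11. The effect of the hairpin in plasmid-carrying cells minus that in WT cells was positive in 27 members past the threshold (15.8% of all genes) and in 44 without the first Dux KD library, and the effect of the plasmid in hairpin-carrying cells minus that in WT cells was positive in 56 (15.2% of all genes). These differences share the WT, Usp17le OE and Dux KD libraries with the comparisons above.

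Gene length and level moved with these results. In Dux KD against WT, the 27 members under 600 bases had a median change of -0.82 and the 20 of 900 bases or more had -0.49. The 589 other genes under 600 bases had -0.73 and the 13368 of 900 bases or more had 0.43, so that short members lay near other short genes and long members far below other long genes. In Usp17le OE against WT the same medians were -0.21 and -0.19 for members and 0.24 and 0.26 for other genes. There, members lay below other genes by a like amount at both lengths. Over the 71 members at 10 TPM or more, Spearman's rho of the change on length was 0.446 for Dux KD and 0.0295 for Usp17le OE, a description across genes that share their libraries. Libraries of a group also differed in this way: the second library was lower than the first by a median of 0.25 (log2) in Dux KD and 0.21 for Usp17le OE over members under 600 bases, but by 0.04 and 0.03 over those of 900 bases or more.

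Among 208 other genes within the 5th to 95th percentile of the members in length (393 to 1864 bases) and level (331 to 6371 TPM), the median change was 0.00 for Usp17le OE against WT and -0.03 for Dux KD against WT, with 29.8% and 41.8% called lower. It was -0.09 for Usp17le OE-Dux KD and -0.03 for Dux KD-Usp17le OE. The median member lay below the median of these genes in all 4 comparisons with WT, most in Dux KD and Usp17le OE-Dux KD. The window bounds length and level but does not match them within its limits. Most of the 208 genes were longer and less abundant than the median member (696 bases and 3383 TPM). For Usp17le OE against WT, the correction by length and level described below gave the opposite sign (median 0.16).

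**Figure D3:**
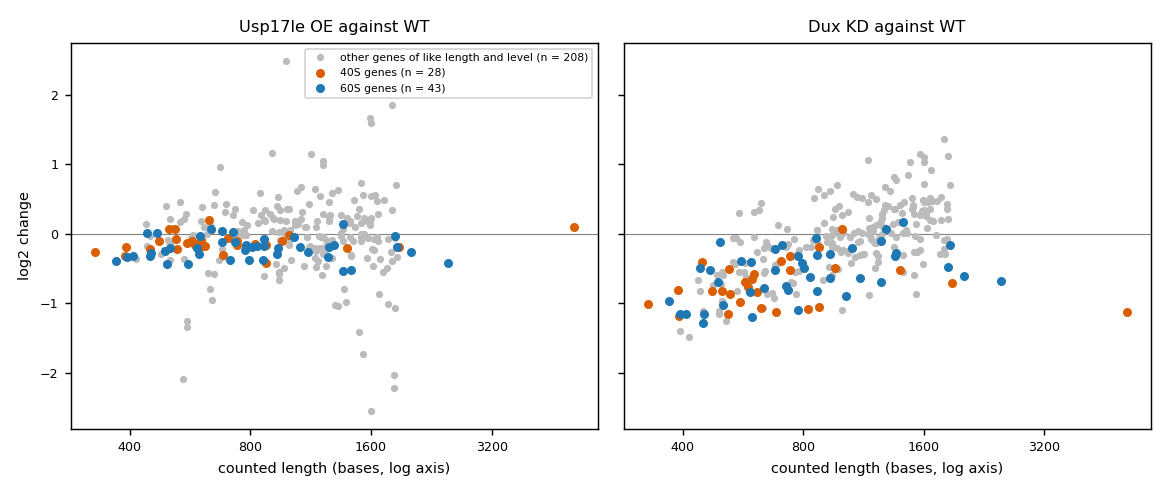
Log2 change against counted length (log axis, bases) in Usp17le OE and Dux KD against WT, for 40S (orange) and 60S (blue) genes at 10 TPM or more and 208 other genes of like length and level (grey). In Dux KD the members under 600 bases have a median of -0.82 and those of 900 bases or more -0.49, against -0.21 and -0.19 for Usp17le OE.

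After the length correction, 47 members were lower in Dux KD against WT (21.6% of all genes), 50 for Usp17le OE-Dux KD (27.5%), 40 for Dux KD-Usp17le OE (17.5%) and 55 for Usp17le OE (33.4%), with medians of -0.33, -0.34, -0.20 and -0.31. In Usp17le OE-Dux KD relative to Usp17le OE the fall shrank to a median of -0.04. There, 29 members were lower (28% of all genes) and 20 higher (4360 of all 14706 genes). In Dux KD-Usp17le OE, 15 were higher than in Dux KD (1.99%) and 34 were higher than in Usp17le OE-Dux KD (20.6%). Correcting for length and level together left 52 members lower in Dux KD against WT (22.7% of all genes), 41 for Usp17le OE-Dux KD (28.4%) and 44 for Dux KD-Usp17le OE (19.3%). It turned Usp17le OE against WT around, with 38 members higher and 4 lower (32.9% and 32.2% of all genes) and a median of 0.16. It left 54 members lower in Usp17le OE-Dux KD relative to Usp17le OE (29.4%). In Dux KD-Usp17le OE, 23 were higher than in Dux KD (2.25%). Relative to Usp17le OE-Dux KD, 12 members of that group were higher (17.3% of all genes) and 10 lower (2395 of all 14706 genes), with a median of 0.02. Few other genes are as abundant as the members, so this surface is thinly covered where they lie. The direction in Usp17le OE depended on the scale, whereas the falls in the 3 groups with the hairpin against WT did not.

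Paralogs of ribosomal proteins moved in both directions. Of 8 tested, 3 rose and 3 fell in Dux KD against WT, and 4 rose and 1 fell in Usp17le OE, where 51.4% and 10.7% of all genes rose and fell in Dux KD and 45.5% and 20.9% in Usp17le OE. The length correction moved the count in Dux KD to 5 higher and 2 lower, and the median from about 0 to 0.33. Of all 14706 genes, 3920 were then higher and 3175 lower. Rpl22l1, a paralog of the 60S gene Rpl22, had 1585 and 1663 TPM for WT, 1933 and 1659 for Usp17le OE, 639 and 527 for Dux KD, 652 and 722 for Usp17le OE-Dux KD and 1123 and 984 for Dux KD-Usp17le OE. It fell by 1.48 (log2, SE 0.12, adjusted p = 1.16e-05) in Dux KD against WT, and by 0.87 (SE 0.06, adjusted p = 1.71e-06) after the length correction. Rpl22 itself had 621 and 623 TPM for WT and 422 and 361 for Dux KD, so the TPM ratio of Rpl22l1 to Rpl22 went from 2.55 and 2.67 to 1.52 and 1.46, and was 3.91 and 3.8 for Usp17le OE. Rps27l, whose human counterpart is a p53 target, had 1717 and 1730 TPM for WT, 2109 and 1794 for Usp17le OE, 663 and 510 for Dux KD, 822 and 895 for Usp17le OE-Dux KD and 1072 and 1000 for Dux KD-Usp17le OE. Both stood lower in all 6 libraries with the hairpin than in the 4 without.

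Rpl10l, Rpl39l and Rpl7l1 rose in Usp17le OE. Rpl10l, an autosomal copy of the X-linked Rpl10 that is needed in spermatogenesis, had 50.2 and 57.5 TPM for WT, 166 and 177 for Usp17le OE, 63.7 and 71.6 for Dux KD, 127 and 119 for Usp17le OE-Dux KD and 63.3 and 63.0 for Dux KD-Usp17le OE. Its change in Usp17le OE against WT was 1.67 (SE 0.08, adjusted p = 2.58e-09). Rpl39l, a paralog of Rpl39 best known from testis, had 74.2 and 72.4 TPM for WT, 190 and 165 for Usp17le OE and 113 and 111 for Usp17le OE-Dux KD (1.27 for Usp17le OE against WT, SE 0.08, adjusted p = 6.68e-08). Rpl7l1 had 97.9 and 95.3 TPM for WT, 193 and 204 for Usp17le OE, 157 and 162 for Dux KD, 203 and 199 for Usp17le OE-Dux KD and 150 and 150 for Dux KD-Usp17le OE. All 3 were highest in the 4 libraries in which Usp17le itself was over 10 TPM. Rps4l, a paralog of the X-linked Rps4x, had 571 and 534 TPM for WT, 744 and 760 for Usp17le OE, 949 and 971 for Dux KD, 917 and 938 for Usp17le OE-Dux KD and 806 and 836 for Dux KD-Usp17le OE, and was lowest in WT, while Rps4x was highest there (4755 and 4719 TPM). Rpl36al stayed between 812 and 1015 TPM, Rpl3l had 2.54 to 6.11 TPM and Rps27rt was listed at 0.

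**Figure D4:**
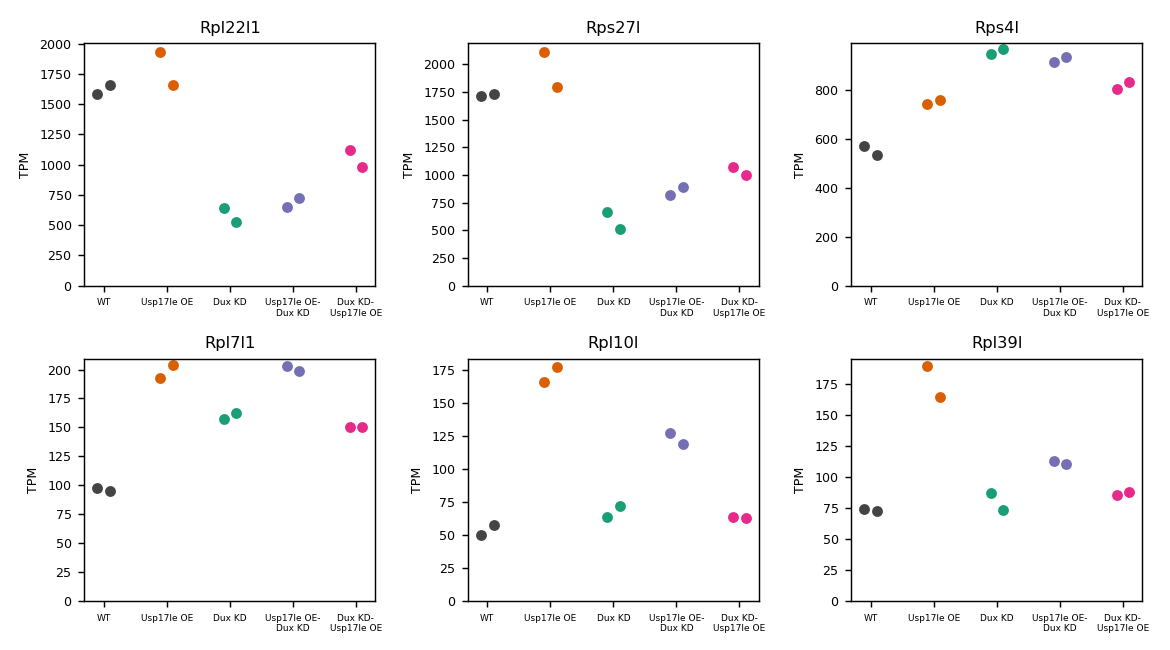
TPM (axes from 0) of 6 paralogs of ribosomal protein genes in 5 groups, with a point per library. Rpl22l1 and Rps27l are lower in the 3 groups with the hairpin (510 to 1123 TPM), Rps4l is lowest in WT (534 and 571 TPM), and Rpl7l1, Rpl10l and Rpl39l are highest in the 2 groups with Usp17le over 10 TPM.

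The ribosomal protein genes outside the name rule were mostly lower too in the groups with the hairpin. Of 4 tested, 3 fell in Dux KD against WT, 4 fell in Usp17le OE-Dux KD, 3 fell in Dux KD-Usp17le OE and 1 fell in Usp17le OE, with medians of -0.27, -0.52, -0.31 and -0.16. Of all genes 10.7%, 11%, 7.62% and 20.9% fell in these comparisons. After the length correction 3, 4, 3 and 3 fell (21.6%, 27.5%, 17.5% and 33.4% of all genes), with a median of -0.29 for Usp17le OE. Rpsa, a 40S protein also known as the laminin receptor, had 4446 and 4372 TPM for WT and 3503 and 3812 for Dux KD. Fau, a 40S protein made as a fusion with a ubiquitin-like domain, had 1845 and 1779 TPM for WT and 1263 and 1090 for Dux KD. Adding these genes raised the share of TPM to 32.7% and 32.4% for WT and 22.7% and 20.9% for Dux KD.

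Other lists of translation genes are read against the shares of all genes that rose and fell, 51.4% and 10.7% in Dux KD against WT and 45.5% and 20.9% in Usp17le OE. Counts after the length correction are read against other numbers. Of 14706 genes, 3920 then rose and 3175 fell in Dux KD, and 4820 rose and 4912 fell in Usp17le OE. Of 26 elongation, initiation and other TOP genes, 13 rose and 8 fell in Dux KD against WT (median 0.14), led by the initiation factor subunits Eif3b (0.92) and Eif3a (0.79), while 4 rose and 16 fell in Usp17le OE (median -0.20), among them the elongation factor Eef2 (-0.78). After the length correction 8 rose and 12 fell in Dux KD (median -0.10), which turns the sign of the median, and 1 rose and 20 fell in Usp17le OE (median -0.40). Of 52 ribosome biogenesis genes, 47 rose and 2 fell in Dux KD (median 0.60), and 34 rose and 6 fell in Usp17le OE (median 0.37). Polr1b, a subunit of RNA polymerase I, rose by 1.55 and by 1.26, but this list has a median length of 2479 bases, and its medians were 0.18 and 0.08 after the length correction. Of 17 regulators of TOP mRNAs in the mTOR pathway (median length 6427 bases), 15 rose in Dux KD (median 0.59), whereas after the length correction 7 rose and 2 fell (median 0.05). Of 77 mitochondrial ribosomal proteins, which serve the separate ribosome of mitochondria, 26 rose and 33 fell in Dux KD (median -0.03), and 43 rose and 8 fell in Usp17le OE (median 0.26), with medians of 0.12 and 0.03 after the length correction. Of 25 replication-dependent histone genes, whose mRNAs lack a poly(A) tail, 1 rose and 5 fell in Dux KD (median -0.38), but the list has a median length of 502 bases, and after the length correction 3 rose and 3 fell (median 0.19). Their summed levels were 1787 and 1795 TPM for Dux KD, 1675 and 1651 for WT and 2384 and 2363 for Usp17le OE.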

How the data were processed

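RNA-seq of 10 libraries of mouse embryonic stem cells in 5 groups was analysed. The submitters' processing notes and the study's methods name Trim Galore for trimming, HISAT2 for alignment to mm10 and featureCounts, at default settings and on uniquely mapped reads, for counting. The authors deposited TPM values and a length in bases per gene symbol. For their own comparisons the authors named DESeq2. Versions and the annotation release are not given in the sources used here. Counting at default settings ignores strand, so reads where genes overlap on opposite strands cannot be assigned by strand. Whole reads were recovered from TPM and length for 100% of values (within 0.01 of a read), 32188285 to 50457228 per library.

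The tests ran on genes that reached 0.5 TPM in 2 libraries or more. Values on the scale log2(TPM + 0.1) were fitted in limma 3.58.1 (R 4.3.3) with 1 mean per group over all 10 libraries (5 residual degrees of freedom, median prior degrees of freedom 7.06, trend and robust options). All p-values are two-sided, adjusted by Benjamini-Hochberg across the tested genes within each of 7 comparisons and 2 differences of effects, and a gene was called at an adjusted p under 0.05. Fold changes are on the log2(TPM + 0.1) scale, which understates the change of low genes. The same fit was repeated relative to the median member, after a loess correction on length (span 0.5), and after a smooth surface on length and level (mgcv 1.9.3), both fitted to genes that are not members. Scaling by the median gene means division of a library by its median ratio to the geometric mean of all libraries. The share of TPM and the 40S to 60S ratio were tested by exact permutation of libraries. The main fit and the fit after the length correction were tested on simulated data, for Dux KD against WT only. The other fits were not tested in this way.

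Genes were named by rule: the 5 highest and 5 lowest members by mean TPM, the 3 members at each end of each comparison, up to 3 called relative to the median member in each direction, the paralogs (with Rpl22 and Rps27 as partners) and the genes outside the name rule, and at most 3 genes of each other list by size of change. Rpl5, Rpl11, Rps4x and the markers were named after their values were seen. The members and the gene lists were chosen with earlier results of these data known. Alternatives were another scaling, a pseudocount of 1, no filter, a replicate block, leaving out each library, and voom on the recovered reads, added after seeing the data. Planned fits with edgeR and DESeq2 were not run, because the deposited values are TPM. 1 ribosomal protein gene outside the name rule is not reported here.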

Additional observations from a re-analysis of the deposited data

Results flagged for a closer look

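The difference of effects stood out in both directions of the design. The effect of the hairpin on members was less negative in cells with the Usp17le plasmid than in WT cells for 27 of 74 members past the threshold (limma), where 15.8% of all genes were positive. The effect of the plasmid was more positive in cells with the hairpin than in WT cells for 56 of 74 (15.2% of all genes). The libraries labelled Dux KD-Usp17le OE, on which the second rests, had Usp17le at 0.941 and 1.63 TPM. After the correction by length and level the median differences were near 0, at 0.015 for the hairpin and 0.0102 for the plasmid. For the hairpin 8 members were then positive and 23 negative, beside 3156 and 3372 of all 14706 genes. For the plasmid 12 were positive and 25 negative, beside 3948 and 4125 of all genes.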

How the results depend on the processing

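Counts of members called lower in the 3 groups with the hairpin relative to WT stayed within 1.5 times and kept their direction under every alternative run. In Usp17le OE relative to WT the count of members lower, 29, became 54 with scaling by the median gene and 55 with the length correction, and with the length and level correction it became 4, the median turning to 0.16. The length correction moved the count lower in Usp17le OE-Dux KD relative to Usp17le OE to 29 and the count higher in Dux KD-Usp17le OE relative to Dux KD to 15. The length and level correction moved the count higher in Dux KD-Usp17le OE relative to Usp17le OE-Dux KD to 12 (10 lower). It moved the positive hairpin differences to 8 (23 negative) and the positive plasmid differences to 12 (25 negative). The medians of these hairpin and plasmid differences were then 0.015 and 0.0102. The causes were not tested.

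Leaving out 1 library moved the count higher in Dux KD-Usp17le OE relative to Dux KD between 5 and 48, and the positive hairpin differences between 18 and 44, the latter without the first Dux KD library. Counts called relative to the median member ranged from 6 to 21 for Usp17le OE, 21 to 44 for Usp17le OE-Dux KD and 4 to 26 for Dux KD-Usp17le OE relative to WT, from 0 to 33 for Dux KD-Usp17le OE relative to Dux KD and from 0 to 16 relative to Usp17le OE-Dux KD. Where a group was left with 1 library, it was assumed to vary like the others.

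Single genes turned sign as follows. With scaling by the median gene, Rplp0 was at -0.12 for Usp17le OE relative to WT. Rpl4 was at -0.25, -0.44 and -0.21 for Dux KD, Usp17le OE-Dux KD and Dux KD-Usp17le OE relative to WT, Rpl10l was at -0.0816 for Dux KD and -0.0787 for Dux KD-Usp17le OE, and Rpl39l was at -0.0727 in the latter. Rps4l was at -0.0013 for Usp17le OE-Dux KD relative to Usp17le OE and 0.0779 for Dux KD-Usp17le OE relative to Usp17le OE-Dux KD. With voom on the recovered reads, Rpl4 was at -0.13, -0.18 and -0.0903 in the same 3 groups. With the length correction, Rplp0 was at -0.0316 for Usp17le OE, Rpl4 at -0.0631 for Usp17le OE-Dux KD, and Rpl36al at 0.35, 0.12, 0.36 and -0.0591 for Dux KD relative to WT, Usp17le OE-Dux KD relative to WT and relative to Usp17le OE, and Dux KD-Usp17le OE relative to Dux KD. With the length and level correction, Rpsa was at 0.0702 for Usp17le OE relative to WT and Rpl36al at 0.23, 0.13, 0.17 and -0.0177 in the same 4 comparisons as above.

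The replicate numbers do not pair the libraries: the 10 correlations of replicate deviations between groups were -0.05 to 0.05, none over 0.1. With the replicate block, 33 members were lower in Usp17le OE, 63 for Dux KD, 58 for Usp17le OE-Dux KD and 55 for Dux KD-Usp17le OE relative to WT. Voom on recovered reads gave 33, 72, 69 and 57. Planned fits with edgeR and DESeq2 were not run.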
